A study of Mus musculus with 6 samples.

Results

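The milk protein and mammary genes are a set of 10 genes taken by symbol from the expression table: the caseins Csn1s1, Csn1s2a, Csn1s2b, Csn2 and Csn3, the whey protein genes Wap and Lalba, and Btn1a1, Cited1 and Glycam1. All 10 were found, each on 1 transcript cluster that names no other gene, among 21154 genes with a cluster of their own. They were selected on the signals of these same arrays, where milk protein genes read high in some control tumours, so their values are given as a description and carry no test. The arrays hold total RNA of subcutaneous tumours of KLN205, which is a murine line from a squamous carcinoma of the lung, after 1000000 cells in 50 µL of medium and 100 µL of Matrigel had been injected into the left flank. Anti-PD-1 tumours (replicates 1, 2 and 3) came from mice given 250 µg of an antibody to PD-1, a receptor that restrains T cells, into the peritoneum every 3 days. Control tumours (replicates 2, 3 and 4) are labelled as without that antibody, and the treatment protocol gives an IgG2a isotype antibody as the control. The study's description refers to tumour cells surviving 7 days of treatment, whereas the sample labels name tumour tissue, so each value is that of a tumour piece with its host cells. The labels give no strain, sex or age, and do not say that each tumour came from its own mouse, so a p-value here reflects the spread among these arrays, which may be technical.

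Milk proteins are made by the secretory luminal cells of the mammary gland during pregnancy and lactation. Prolactin binds its receptor on these cells, the kinase JAK2 is activated, and the transcription factor STAT5 then binds the promoters of milk protein genes together with the glucocorticoid receptor and other factors. ELF5 is a further factor that secretory luminal cells need. In mice the mammary glands lie under the skin, embedded in a pad of fat, and extend over the flanks.

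Values are log2 signals, in which 1 unit is a factor of 2 on the linear scale. The median signal of an array was 7.04 to 7.13. Precision is limited by the array number, 3 in each group. Control replicate 3 stood apart before any milk gene is considered: its Pearson correlation with the other arrays, across genes, ran from 0.907 to 0.936, against 0.973 to 0.987 among the other 5 arrays. The squamous marker Krt5, a keratin of basal squamous cells, read 17.39, 18.15 and 16.97 in anti-PD-1 replicates 1, 2 and 3, against 16.66, 11.00 and 13.14 in control replicates 2, 3 and 4. Most group differences below are therefore given also without control replicate 3.

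Promoters of genes of the set are shown first, as a description of their letters, and the signals below were not related to them. A promoter entry was found for 7 of the 10 genes in a RefSeq table of the build GRCm38.p6, which holds 250 bases before and 50 after each start. Csn3, Csn1s2b and Btn1a1 had no entry. Each sequence was searched for TTCNNNGAA, the palindrome that STAT5 is known to bind, which reads the same on both strands. Capitals mark a match.
Csn2 (chr5:87699376-87699675, minus strand): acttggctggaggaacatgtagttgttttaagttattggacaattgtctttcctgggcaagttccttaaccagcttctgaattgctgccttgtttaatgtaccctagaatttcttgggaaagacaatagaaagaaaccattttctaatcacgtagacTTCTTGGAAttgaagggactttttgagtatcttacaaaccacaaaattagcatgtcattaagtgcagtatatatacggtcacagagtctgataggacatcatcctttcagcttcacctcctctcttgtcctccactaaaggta
Csn1s1 (chr5:87665958-87666257, plus strand): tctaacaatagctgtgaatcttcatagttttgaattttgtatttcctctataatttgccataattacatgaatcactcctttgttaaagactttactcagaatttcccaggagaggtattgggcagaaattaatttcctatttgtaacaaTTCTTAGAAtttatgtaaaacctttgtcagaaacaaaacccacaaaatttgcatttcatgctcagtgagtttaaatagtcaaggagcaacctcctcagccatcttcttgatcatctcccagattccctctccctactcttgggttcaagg
Csn1s2a (chr5:87774200-87774499, plus strand): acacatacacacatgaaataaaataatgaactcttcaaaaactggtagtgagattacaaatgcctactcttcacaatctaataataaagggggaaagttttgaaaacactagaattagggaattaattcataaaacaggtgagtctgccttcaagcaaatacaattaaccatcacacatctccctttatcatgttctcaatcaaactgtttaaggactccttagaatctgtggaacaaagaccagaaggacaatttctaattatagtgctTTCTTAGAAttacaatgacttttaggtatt
Glycam1 (chr15:103565032-103565331, minus strand): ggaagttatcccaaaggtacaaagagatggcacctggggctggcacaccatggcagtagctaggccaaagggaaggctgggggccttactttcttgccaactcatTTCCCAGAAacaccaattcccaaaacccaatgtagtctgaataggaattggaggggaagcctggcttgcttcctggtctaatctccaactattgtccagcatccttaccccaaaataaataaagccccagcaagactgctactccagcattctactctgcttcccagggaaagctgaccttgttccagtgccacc
Wap (chr11:6638600-6638899, minus strand): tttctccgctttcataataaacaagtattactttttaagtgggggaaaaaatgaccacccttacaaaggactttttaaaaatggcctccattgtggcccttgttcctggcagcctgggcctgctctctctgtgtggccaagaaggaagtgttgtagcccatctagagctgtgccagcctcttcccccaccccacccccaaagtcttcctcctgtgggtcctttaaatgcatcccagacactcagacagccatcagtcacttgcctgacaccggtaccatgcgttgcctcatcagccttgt
Lalba (chr15:98482634-98482933, minus strand): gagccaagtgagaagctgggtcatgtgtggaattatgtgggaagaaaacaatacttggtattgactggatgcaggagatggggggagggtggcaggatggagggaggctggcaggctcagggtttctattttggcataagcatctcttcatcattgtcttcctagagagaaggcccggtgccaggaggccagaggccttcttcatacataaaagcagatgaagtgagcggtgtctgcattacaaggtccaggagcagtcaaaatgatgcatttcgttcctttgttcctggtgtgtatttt
These 7 genes have 9 promoter entries, of which Cited1 holds 3. The motif was found in 4 of the 9, each of another gene, against 2726 of 32851 promoters (8.30%) in the whole table. It began 93 bases before the start in Csn2, 100 before it in Csn1s1 and 145 before it in Glycam1, and at base 21 after the RefSeq start in Csn1s2a. The deposited annotation starts Csn1s2a 117 bases further downstream, so the whole Csn1s2a window lies before that start and the match begins 97 bases before it. For Csn2, Csn1s1 and Glycam1 both annotations give the same start. The windows of Wap, Lalba and Cited1 held no match, which says only that these letters are not in those windows. A match is a description of the letters and not a measured site.

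Of the 5 caseins, 4 read high in control replicates 2 and 3 and low on every other array. Csn2, beta-casein, read 5.13, 5.53 and 5.85 in anti-PD-1 replicates 1, 2 and 3, against 13.68, 16.21 and 5.22 in control replicates 2, 3 and 4. Csn1s1, alpha-S1-casein, read 4.38, 5.23 and 5.27 in anti-PD-1 tumours, against 12.11, 15.67 and 4.99 in control tumours. Control replicate 4 lay inside the anti-PD-1 range for both genes, so the groups overlap. Csn1s2a, an alpha-S2-casein, read 4.87, 5.09 and 5.82 in anti-PD-1 tumours, against 13.57, 13.06 and 5.56 in control tumours. It is the casein whose signals in control replicates 2 and 3 were nearly level, with replicate 3 lower by 0.51, whereas Csn1s1, Csn2 and Csn3 were higher in replicate 3 than in replicate 2 by 3.56, 2.53 and 3.31. Csn3, kappa-casein, which coats and stabilises the casein micelle, read 5.90, 6.25 and 6.72 in anti-PD-1 tumours, against 11.89, 15.20 and 5.12 in control tumours. For Csn3 control replicate 4 was the lowest of all 6 arrays. In a whole tumour piece more cells of a type and more RNA per cell cannot be told apart.

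**Figure D1:**
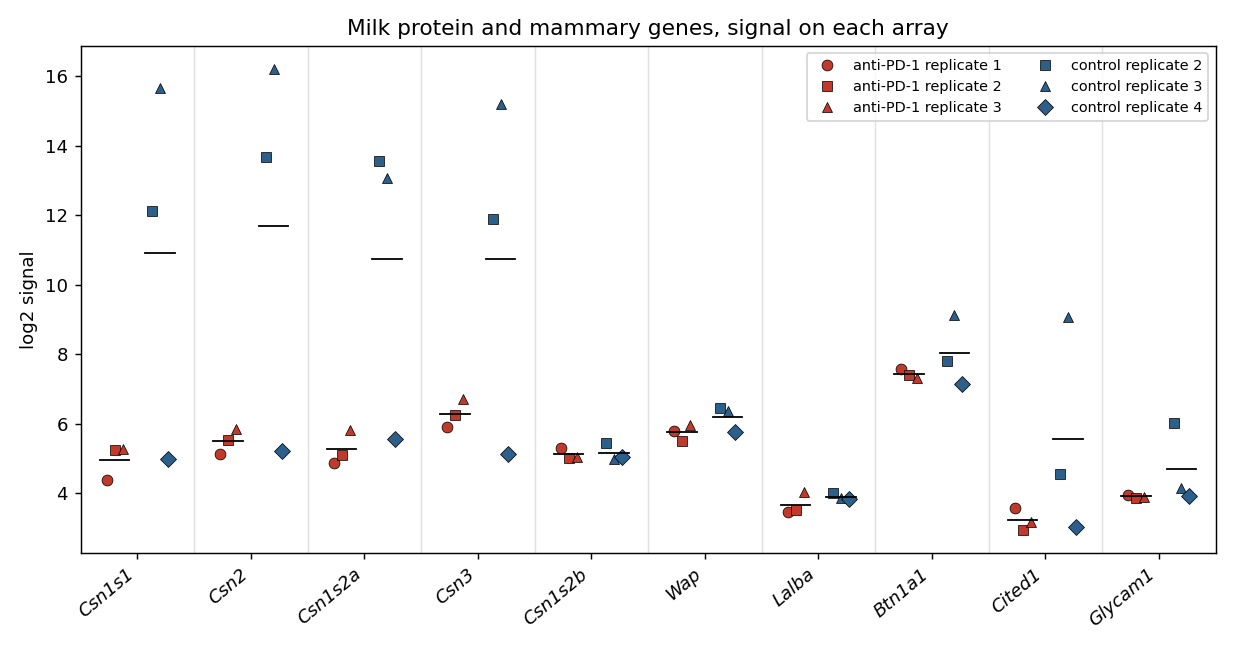
Log2 signal (vertical axis) of the 10 genes (horizontal axis) on each of 6 arrays, with anti-PD-1 tumours at the left and control tumours at the right of each gene; the marker shape gives the replicate number and a black bar the group mean, n = 3 each. Csn1s1, Csn2, Csn1s2a and Csn3 stand between 11.89 and 16.21 in control replicates 2 and 3 and between 4.38 and 6.72 on the other 4 arrays, while Csn1s2b lies between 4.99 and 5.43 on all 6.

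The group means of these caseins hide that split within the control group. Csn2 averaged 5.50 ± 0.36 in anti-PD-1 tumours and 11.70 ± 5.76 in control tumours (SD, n = 3 each), a log2 difference of -6.20, or 73.5-fold lower by the group means. Csn1s1 averaged 4.96 ± 0.50 in anti-PD-1 tumours and 10.92 ± 5.44 in control tumours, a difference of -5.96. Csn1s2a differed by -5.47, with a control SD of 4.48 against 0.50 in anti-PD-1 tumours. The authors' deposited table calls Csn3 not expressed in anti-PD-1 tumours. Its signals there, 5.90 to 6.72, lay above those of Csn1s1, Csn2 and Csn1s2a, which that table calls expressed. Going by that call, the Csn3 difference of -4.45 reads as at least 21.8-fold lower in anti-PD-1 tumours. These sizes rest on which control array enters. Without control replicate 3 the log2 difference was -3.95 for Csn2, -3.59 for Csn1s1, -4.305 for Csn1s2a and -2.215 for Csn3, for which the bound is then at least 4.64-fold. Without control replicate 2 it was -5.21 for Csn2, -5.37 for Csn1s1, -4.05 for Csn1s2a and -3.87 for Csn3. Without control replicate 4 it was -9.44 for Csn2, -8.93 for Csn1s1, -8.055 for Csn1s2a and -7.255 for Csn3. The authors' deposited table summarises a group by another average, 13.56 for Csn2 in control tumours, and so gives a fold of 264.83 for control over anti-PD-1, the opposite direction to the differences here.

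The remaining casein did not share this pattern. Csn1s2b, the second alpha-S2-casein of the mouse, read 5.29, 5.0 and 5.05 in anti-PD-1 tumours, against 5.43, 4.99 and 5.05 in control tumours. Its whole range over 6 arrays was 0.44, while that of Csn1s2a, its neighbour on the chromosome, was 8.70.

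The caseins lie side by side on chromosome 5 (mm10), and the signals around them were set out to see how far the high readings reached. The 5 genes span 266 kb, from Csn1s1 (87666208 to 87682577, plus strand) over Csn2 (87692619 to 87699425, minus strand), Csn1s2a (87774567 to 87788797) and Csn1s2b (87808082 to 87824426) to Csn3 (87925579 to 87932665), these last 3 on the plus strand. Within 500 kb of Csn2 the deposited annotation places 21 clusters, of which 16 are no casein. Prr27, Gm7337 and Odam lie between Csn1s2b and Csn3. Odam, which encodes a protein of enamel-forming and junctional epithelium, read 4.60, 5.06 and 5.25 in anti-PD-1 tumours, against 5.23, 4.66 and 5.43 in control tumours. Prr27 read 4.28, 4.57 and 4.38 in anti-PD-1 tumours, against 4.86, 5.15 and 4.57 in control tumours, and Gm7337 stayed between 4.53 and 5.39. Genes that read between 4.28 and 5.43 on all 6 arrays thus stood between caseins that read above 11 in control replicates 2 and 3.

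Outside the caseins no cluster of the region reached the level of the high caseins in those arrays. Among the 16 others the highest signal in control replicate 2 or 3 was 7.52, that of Sult1e1, the estrogen sulfotransferase, in control replicate 2. Sult1e1 read 7.82, 6.21 and 8.50 in anti-PD-1 tumours, against 7.52, 4.24 and 10.22 in control replicates 2, 3 and 4, so it was lowest in control replicate 3 and highest in control replicate 4. Of these 16 clusters 2 had a range of at least 2 log2 units, Sult1e1 and Gm11115. In 3 of the 16 both control replicates 2 and 3 lay above the other arrays: Ugt2b37 read at most 3.63 there, Ugt2b38 at most 5.39 and Prr27 at most 5.15. On the other arrays these genes read at most 3.26, 4.14 and 4.57. Ugt2b37 is called not expressed in either group and Ugt2b38 not expressed in anti-PD-1 tumours. Nothing is read from this count.

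**Figure D2:**
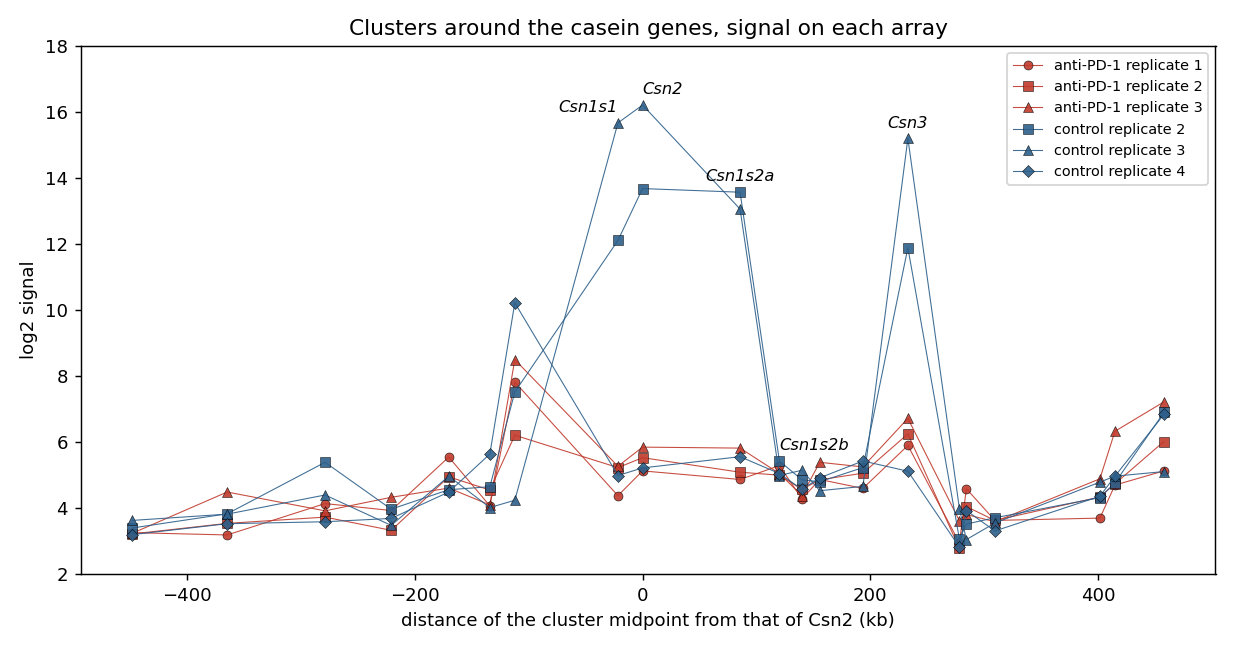
Log2 signal (vertical axis) of the 21 clusters within 500 kb of Csn2, placed by the distance of each cluster's midpoint from that of Csn2 in kb (horizontal axis); red symbols are anti-PD-1 tumours, blue symbols control tumours, and lines only join the clusters of an array. Control replicates 2 and 3 leave the other arrays at Csn1s1, Csn2, Csn1s2a and Csn3 and meet them again at Csn1s2b, and the peak at the left, at Sult1e1, is highest in control replicate 4.

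The whey protein genes differed little between arrays. Wap, whey acidic protein, is an abundant whey protein of mouse milk. It read 5.79, 5.49 and 5.97 in anti-PD-1 tumours, against 6.45, 6.35 and 5.75 in control tumours, with a difference between group means of -0.43. Control replicates 2 and 3 lay above the other 4 arrays by 0.48 and 0.38. Lalba, alpha-lactalbumin, is the subunit that turns a galactosyltransferase into lactose synthase. It read 3.45, 3.52 and 4.02 in anti-PD-1 tumours, against 3.99, 3.85 and 3.82 in control tumours, and its highest array was anti-PD-1 replicate 3. As background, in mouse pregnancy casein transcripts appear earlier than those of Wap and Lalba.

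Btn1a1 and Cited1 were highest in control replicate 3, and Glycam1 in control replicate 2. Btn1a1, butyrophilin, a membrane protein of milk fat globules, read 7.56, 7.41 and 7.32 in anti-PD-1 tumours, against 7.79, 9.14 and 7.15 in control tumours. Its difference of -0.60 was -0.04 without control replicate 3. Cited1, a transcriptional cofactor present in mammary epithelium, read 3.58, 2.95 and 3.17 in anti-PD-1 tumours, against 4.55, 9.07 and 3.03 in control tumours. The deposited call lists Cited1 as not expressed in anti-PD-1 tumours, and it was at least 4.98-fold lower there. That bound becomes at least 1.47-fold when control replicate 3 is left out, and at least 7.05-fold when control replicate 2 is. Glycam1, a mucin-like protein secreted into milk by the mouse mammary gland and also made by the high endothelial venules of lymph nodes, read 3.95, 3.87 and 3.90 in anti-PD-1 tumours, against 6.03, 4.16 and 3.91 in control tumours. The deposited call is again not expressed for anti-PD-1 tumours, where it was at least 1.73-fold lower, or at least 1.09-fold when control replicate 2 is left out. It is the gene of the 10 that stood out in control replicate 2 and not in replicate 3, which lay 0.21 above the highest of the other 4 arrays.

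Over the 10 genes the group means were lower in anti-PD-1 tumours in all 10, with a median log2 difference of -1.555, beside 48.0% of all genes lower and a median of 0.02 over all genes. For Csn1s2b the sign turned when control replicate 2 was left out (0.09), or anti-PD-1 replicate 2 (0.01). The median lies midway between Glycam1 and Cited1, both called not expressed in anti-PD-1 tumours, so it reads as a bound by that call alone. It was -0.81 without control replicate 3. In none of the 10 were the groups free of overlap, beside 16.6% of all genes (8.82% with anti-PD-1 higher and 7.76% with it lower), and in 8 both control replicates 2 and 3 lay above the other 4 arrays, Csn1s2b and Lalba being the exceptions. The genes were picked for this pattern, so nothing is read from these counts.

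The other genes of mammary tissue were read from lists of milk secretion, milk lipid, lactogenic signalling, luminal and myoepithelial genes. These hold 72 genes, of which 71 have a cluster of their own. None passed the threshold of 0.05 in limma's test with Benjamini-Hochberg adjustment, where 1 gene of the 21154 (0.00473%) passed. At an unadjusted p under 0.05 there were 12 of the 71, against 9.7% of all genes. With anti-PD-1 higher there were 6, against 5.18% of all genes, and with anti-PD-1 lower also 6, against 4.52%. Of the 6 with anti-PD-1 higher, 5 were on the myoepithelial list. These include Krt5 and Krt14, basal keratins that squamous cells share with myoepithelium, so they are not particular to mammary tissue. Leaving out anti-PD-1 replicate 1 gave 7 genes of the lists at an unadjusted p under 0.05, and leaving out anti-PD-1 replicate 2 or 3 gave 5. Leaving out control replicate 3 gave 11, and leaving out control replicate 2 or 4 gave 18. With a test per gene that allows unequal variances there was 1. By array, 42 of the 71 genes were highest in control replicate 3 and 4 in control replicate 2, where 26.1% and 13.4% of all genes were highest.

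Among lactogenic signalling genes, 16 of 21 were highest in control replicate 3. Prlr, the prolactin receptor, read 5.39, 5.96 and 4.66 in anti-PD-1 tumours, against 5.84, 11.80 and 4.76 in control replicates 2, 3 and 4. It was high in control replicate 3 alone, and control replicate 2, with its high caseins, lay inside the anti-PD-1 range. Elf5 read 5.19, 5.39 and 5.20 in anti-PD-1 tumours, against 7.36, 13.97 and 4.98 in control tumours. Control replicate 2 thus lay above the anti-PD-1 tumours for Elf5, and control replicate 3 by 6.61 above replicate 2.

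Stat5a and Stat5b, the targets of prolactin signalling in the cytoplasm, varied less. Stat5a read 9.76, 9.70 and 9.52 in anti-PD-1 tumours, against 9.67, 11.43 and 10.12 in control tumours. Stat5b read between 8.13 and 8.83 in anti-PD-1 tumours, against 8.64, 9.96 and 8.75 in control tumours. Cish, a feedback inhibitor that STAT5 induces, read 5.99, 5.97 and 5.86 in anti-PD-1 tumours, against 6.21, 7.12 and 6.88 in control tumours. Its difference of -0.80 ± 0.28 (SE) had an adjusted p of 0.506 by limma, and was -0.605 without control replicate 3. Erbb4, a receptor of neuregulins in the lactating gland, read 4.80, 4.37 and 4.02 in anti-PD-1 tumours, against 5.28, 6.06 and 5.03 in control tumours. The deposited call lists it as not expressed in anti-PD-1 tumours, so it was at least 2.08-fold lower there, or at least 1.69-fold when control replicate 3 is left out, with an adjusted p of 0.506 by limma.

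Hormone receptors of the duct followed control replicate 3. Esr1, the estrogen receptor, read between 5.17 and 5.93 in anti-PD-1 tumours, against 5.36, 7.65 and 5.82 in control tumours. Pgr, the progesterone receptor, read between 4.59 and 5.03 in anti-PD-1 tumours, against 5.10, 8.69 and 4.32 in control tumours. The epithelial transcription factors Ehf and Tfap2c read 14.13 and 10.78 in control replicate 3, and at most 11.15 and 7.63 on the other arrays. The cluster that names Gata3, a luminal transcription factor, together with 9230102O04Rik read 8.59, 9.32 and 8.13 in anti-PD-1 tumours, against 7.43, 11.79 and 8.60 in control tumours. For that cluster control replicate 2 was the lowest of all arrays.

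**Figure D3:**
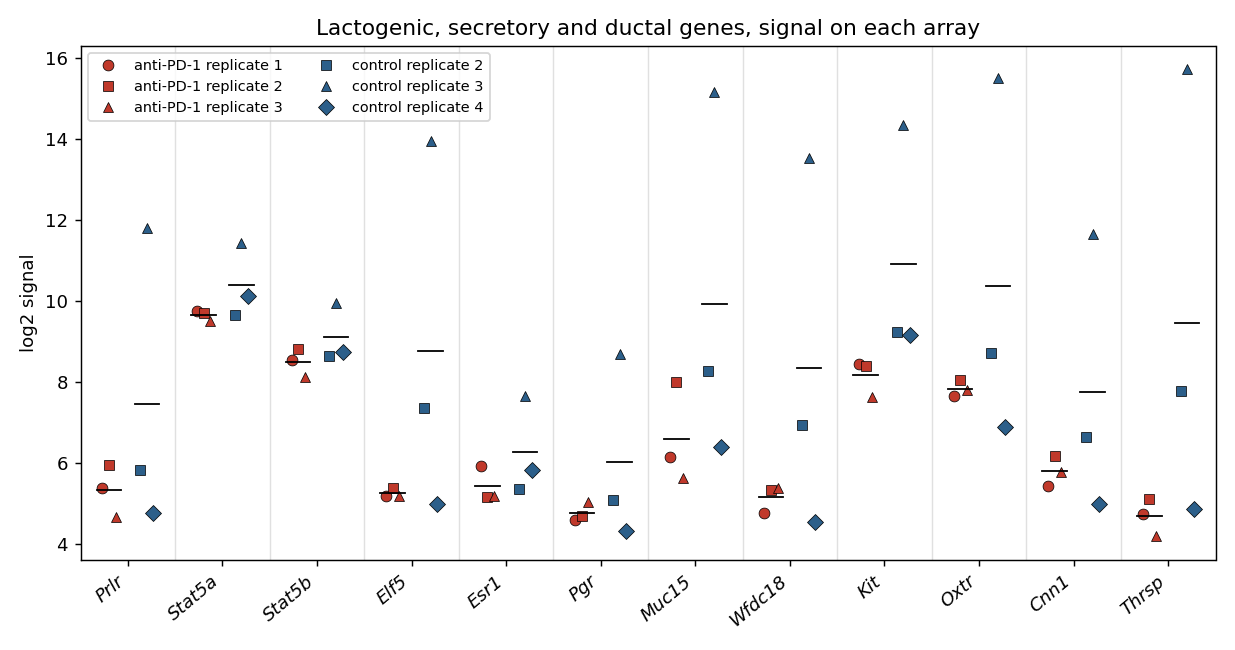
Log2 signal (vertical axis) of 12 genes of lactogenic signalling, secretion, luminal and myoepithelial cells and milk lipid (horizontal axis) on each of 6 arrays, with anti-PD-1 tumours at the left and control tumours at the right of each gene; shapes give the replicate number and black bars the group means, n = 3 each. Control replicate 3 is the highest array for all 12, and control replicate 2 stands above the remaining 4 arrays for Elf5, Wfdc18 and Thrsp, among others, but not for Prlr, Stat5a, Stat5b and Esr1.

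Among genes of milk secretion, 10 of 15 had lower means in anti-PD-1 tumours. Muc15, a mucin of the milk fat globule membrane, read 6.15, 8.0 and 5.63 in anti-PD-1 tumours, against 8.27, 15.16 and 6.39 in control tumours. Wfdc18, a small secreted protein of the Wap family in mammary epithelium, read 4.77, 5.33 and 5.39 in anti-PD-1 tumours, against 6.93, 13.55 and 4.54 in control tumours. Both genes had their peak in control replicate 3, with replicate 2 lower by more than for any casein. Ltf, lactoferrin, differed by -1.51 ± 0.60 (SE), with an adjusted p of 0.508 by limma, and by -0.82 without control replicate 3. Pthlh, which encodes a calcium-mobilising hormone made by squamous cells and by the lactating gland, went the other way: it read 10.87, 11.41 and 11.13 in anti-PD-1 tumours, against 10.86, 7.12 and 6.89 in control tumours, with an adjusted p of 0.506 by limma and a difference of 2.85 ± 1.01 (SE), or 2.26 without control replicate 3. Spp1, osteopontin, read between 14.48 and 15.76 in anti-PD-1 tumours, against 15.13, 8.19 and 14.79 in control tumours, so that control replicate 3 was the low array.

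Luminal genes gave a mixed picture in the array with the highest caseins. Kit, a receptor of luminal progenitor cells, read 8.45, 8.41 and 7.64 in anti-PD-1 tumours, against 9.24, 14.35 and 9.16 in control tumours. Prom1, another luminal surface protein, read between 4.57 and 5.28 in anti-PD-1 tumours, against 5.58, 8.11 and 4.73 in control tumours. Krt7 and Cldn4, a keratin and a tight junction protein of simple epithelia, were lowest in control replicate 3, at 11.15 and 10.67, against at least 15.94 and 15.26 on the other arrays. Epcam, an adhesion protein of epithelia, read 14.27, 14.17 and 14.72 in anti-PD-1 tumours, against 14.10, 13.07 and 13.88 in control tumours, without overlap between the groups. Of 12 luminal genes 4 were highest in control replicate 3, and the list's median difference was 0.67.

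Genes of myoepithelial cells, which contract to eject milk, split in the same manner. Oxtr, the oxytocin receptor, read 7.66, 8.06 and 7.80 in anti-PD-1 tumours, against 8.71, 15.52 and 6.89 in control tumours. Cnn1, a contractile protein, read between 5.44 and 6.17 in anti-PD-1 tumours, against 6.65, 11.67 and 4.98 in control tumours. Krt5 and Krt14, the basal keratins that squamous cells share with myoepithelium, read 11.00 and 9.90 in control replicate 3, the lowest of all arrays. Krt14 differed by 3.93 ± 1.29 (SE) and Acta2, smooth muscle actin, by 0.84 ± 0.26 (SE), each with an adjusted p of 0.506 by limma. Without control replicate 3 these differences were 2.405 for Krt14 and 0.79 for Acta2.

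Fat synthesis genes, which the lactating gland shares with adipocytes, were highest in control replicate 3 in 9 of 12 cases. Thrsp, a regulator of fatty acid synthesis, read 4.75, 5.11 and 4.19 in anti-PD-1 tumours, against 7.79, 15.73 and 4.87 in control tumours. Fasn and Acaca, enzymes of fatty acid synthesis, read 12.96 and 11.22 in control replicate 2 and 17.76 and 16.29 in replicate 3, and at most 11.76 and 10.34 on the other arrays. Lpl, lipoprotein lipase, differed by -3.03 ± 1.24 (SE), with an adjusted p of 0.512 by limma, and by -1.55 without control replicate 3. Scd1, a fatty acid desaturase, read 15.12, 16.41 and 13.89 in anti-PD-1 tumours, against 17.48, 19.39 and 15.66 in control tumours.

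Markers of other tissues differed in direction: fat genes were high where the caseins were high, and most suprabasal skin genes were low there. All 11 adipocyte genes were highest in control replicate 3, and their summed signal, as log2, lay between 11.06 and 13.11 in anti-PD-1 tumours, against 15.43, 19.35 and 12.04 in control replicates 2, 3 and 4. Adipoq, the adipocyte hormone adiponectin, read 9.26, 10.12 and 6.53 in anti-PD-1 tumours, against 12.76, 17.32 and 8.60 in control tumours. Retn, the adipocyte protein resistin, read 5.74, 6.33 and 4.22 in anti-PD-1 tumours, against 9.14, 14.36 and 4.42 in control tumours. Cidec, a lipid droplet protein, Cfd, the complement protease adipsin, and Lipe, hormone-sensitive lipase, read 12.20, 13.14 and 10.26 in control replicate 2, 15.51, 17.01 and 14.30 in control replicate 3, and at most 8.80, 10.48 and 8.59 on the other arrays. Both control arrays with high caseins therefore also held the highest fat signals, in the same order as Csn2. Of 6 suprabasal skin genes 5 were lowest in control replicates 2 and 3, and Krt2, called not expressed in either group, read between 3.89 and 4.32 on all arrays. The list had a summed log2 signal between 15.73 and 18.12 in anti-PD-1 tumours, against 8.17, 8.58 and 17.06 in control tumours. Such a sum adds linear signals, so the brightest genes of a list set most of it. Krt1, a keratin of differentiating epidermis, read 14.12, 16.33 and 14.48 in anti-PD-1 tumours, against 5.17, 3.98 and 14.98 in control tumours. Krt10, its keratin partner, read 7.19 and 8.14 in control replicates 2 and 3, and at least 14.87 on the other arrays. Flg2, Lce1a1 and Lor, which encode proteins of the cornified layer, read at most 4.54, 5.35 and 4.51 in those arrays, and at least 9.37, 8.92 and 5.32 on the others. KLN205 is itself a squamous line, so suprabasal genes of tumour cells and of host skin cannot be told apart in a tumour piece. The part of fat or skin in the casein signals was not tested.

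Of 8 skeletal muscle genes 7 were highest in control replicate 3, and Myh1 in anti-PD-1 replicate 1. The list's summed log2 signal was between 11.72 and 16.66 in anti-PD-1 tumours, against 15.20, 18.33 and 15.52 in control tumours, so that control replicate 2 lay inside the anti-PD-1 range. Myh4, a fast myosin, read 14.64, 15.69 and 8.80 in anti-PD-1 tumours, against 13.60, 17.65 and 14.92 in control tumours. Acta1, Tnnt3, Tnni2 and Ckm, genes of the contractile apparatus and its energy supply, read 15.99, 14.59, 12.41 and 12.92 in control replicate 3, and at most 15.62, 13.09, 10.58 and 11.50 on the other arrays. Among genes of salivary and related exocrine glands, Amy1, amylase, read 6.65, 6.06 and 6.04 in anti-PD-1 tumours, against 8.01, 12.24 and 6.29 in control tumours. The salivary genes Smr2, Smr3a, Bpifa2 and Dcpp3 read between 3.31 and 4.89 on all arrays. The cluster that names Mucl2 and Mucl1 together read at most 5.40. Pip, a secreted protein of several exocrine glands, and Bhlha15, a transcription factor of secretory cells, read at most 6.15 and 4.86 on any array. Aqp5, a water channel of salivary glands, read between 8.05 and 9.10 in anti-PD-1 tumours, against 7.96, 7.96 and 8.53 in control tumours.

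Lymph node genes were set beside Glycam1. Madcam1 and Chst4, which mark high endothelial venules together with Glycam1, read 3.68 and 3.54 in control replicate 2, within 3.22 to 4.31 over all arrays. Cxcl13, the chemokine of B cell follicles, read 11.93, 9.52 and 10.33 in anti-PD-1 tumours, against 13.57, 11.90 and 13.83 in control tumours. Of the 10 genes of the list, 9 have a cluster of their own. All 9 had lower means in anti-PD-1 tumours, beside 48.0% of all genes, with a median difference of only -0.29. Cr2 and Fcer2a, receptors of B cells and follicular dendritic cells, read at most 4.09 and 7.41 in anti-PD-1 tumours, against at least 4.28 and 7.53 in control tumours. Ltb, lymphotoxin beta, read between 5.77 and 6.60 in anti-PD-1 tumours, against 7.02, 5.99 and 7.01 in control tumours. Ccl21a, the remaining gene of the list, went the other way. The 2 clusters that name it with Gm1987 read at least 11.34 and 9.40 in anti-PD-1 tumours. In control tumours they read at most 8.77 and 8.02. Y-linked genes gave no contrast between arrays: Ddx3y, Uty, Kdm5d and Eif2s3y read between 2.62 and 5.64 on all 6, with no range over 0.71.

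**Figure D4:**
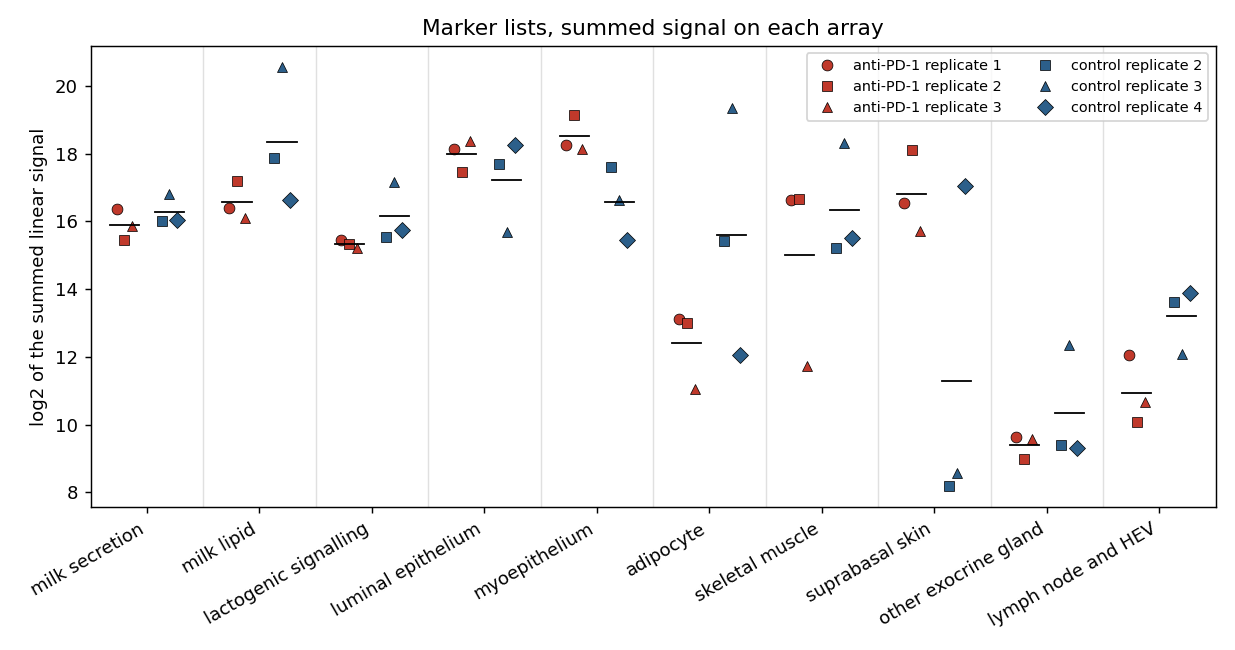
Log2 of the summed linear signal (vertical axis) of 10 marker lists (horizontal axis) on each of 6 arrays, with anti-PD-1 tumours at the left and control tumours at the right of each list; shapes give the replicate number and black bars the group means, n = 3 each. Adipocyte and milk lipid lists are highest in control replicate 3 and next in control replicate 2, and suprabasal skin is lowest in those same arrays, at 8.58 and 8.17. Each sum is set mostly by the brightest genes of its list.

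Genes whose pattern over the 6 arrays was most like that of the caseins were sought with Pearson's r against the mean profile of the 5 caseins, over genes with a range of at least 2 log2 units. Of 3197 such genes 11 reached r = 0.95, of which 4 were the high caseins themselves. All these genes were read on the same 6 arrays, so r is a description and carries no test. The nearest other gene, at r = 0.976, was Pck1, a gene of the adipocyte list that encodes a key enzyme of glucose and glyceride synthesis. It read 6.52, 6.62 and 6.02 in anti-PD-1 tumours, against 9.17, 11.21 and 5.93 in control tumours. Next came Nr5a2, a nuclear receptor, at 0.964, Nnat, neuronatin, at 0.96 and Agt, angiotensinogen, at 0.955. Zfp493, Lctl and Irs3 also passed 0.95, Syt14 lay just under it, and then came Ppbp, a platelet chemokine, at 0.94 and Hebp1 at 0.94. None of these 10 varied as far as the caseins, with ranges between 2.01 and 5.28 against 8.70 to 11.29 for the 4 high caseins. Without control replicate 2 the count at r = 0.95 was 439, without anti-PD-1 replicate 2 it was 17 and without control replicate 4 it was 18. Without control replicate 3 it was 13.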

How the data were processed

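Total RNA, 250 ng per sample, was labelled with biotin and read on Clariom S Mouse arrays, per the labels' protocols and the file headers. The log2 signals were made by the authors at gene level with SST-RMA, as stated per the file headers, on an annotation for mm10 (na36). Per the submitters' processing notes the software was the Transcriptome Analysis Console. The authors' deposited table also holds log2 group averages, a score for the standard deviation per group, expressed calls, a signed fold change and a p-value with its FDR; the sources used here do not give their rules or the software version, and no deposited p-value was used. The second deposited table held the same log2 signals (0 values differed).

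Of 22206 clusters, 836 with several gene names and 3 with none were left out of the gene test, and for 132 genes the cluster with the highest mean was kept. No dim signals were filtered. The test was limma's (version 3.58.1, R 4.3.3; lmFit, then eBayes) of anti-PD-1 minus control over 21154 genes, two-sided, with Benjamini-Hochberg adjustment and a threshold of 0.05; the test and the likeness measure were tried on simulated data. An exact permutation test of 3 against 3 arrays cannot go below a two-sided p of 0.1. Members and lists were chosen with earlier results of these data known. Named are all members, of each list the 4 genes with the largest range and the 2 with the smallest p, Prlr, Stat5a, Stat5b, Elf5, Gata3, Esr1 and Pgr, the 10 genes most like the caseins, and clusters within 500 kb of Csn2. Madcam1, Chst4, Bpifa2, Dcpp3 and Smr3a, and the clusters naming Ccl21a or Mucl2 with another gene, were named after their values were seen. A bound is the fold of the group means where the anti-PD-1 group was called not expressed, each of its arrays entering at the higher of its own signal and the lowest signal called expressed on that array. Those lowest signals were 2.71 to 2.84 on the anti-PD-1 arrays, below every signal of the genes given a bound. Each bound printed therefore equals the plain fold, and its wording as a bound rests on the deposited call alone. Alternatives were each array left out, quantile and median scaling, cluster means, expressed genes alone, 3 other models and the replicate block.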

Additional observations from a re-analysis of the deposited data

How the results depend on the processing

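The 10 genes were recomputed under 11 alternatives, 110 values in all, of which 3 did not keep their sign, all of Csn1s2b. These were 0.01 without anti-PD-1 replicate 2, 0.09 without control replicate 2 and 0.00 with the median over the arrays of a group. The size of the high caseins' differences was not stable: that of Csn2, -6.20 over all arrays, ran from -9.44 to -3.95 with a control array left out. With the median over the 3 arrays of a group, chosen after seeing the data, the difference was -8.15 for Csn2 and 0.00 for Csn1s2b. The median over the genes was then -0.97. With group means, the mean over the genes was -2.65. The median over the genes, again with group means, ran from -2.38 to -0.81 with an array left out.

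The count of genes past the adjusted threshold, 1 over all arrays, ran from 0 to 4 with an array left out and was 0 after quantile normalization, median centring, a per-gene test with unequal variances and the replicate block. At an unadjusted p under 0.05 the count was 2051, ran from 1051 (anti-PD-1 replicate 3 left out; 1227 with anti-PD-1 replicate 1 left out) to 3164 (control replicate 2 left out), and was 1058 with unequal variances and 696 with the block. In the further mammary lists it was 12, ran from 5 to 18 with an array left out, and was 1 with unequal variances. The number of genes like the casein profile, 11, was 74 with no minimum range and ran from 12 to 439 with an array left out.

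Replicate numbers 2 and 3 occur in both groups, but deviations from the group means correlated at -0.196 and -0.191, so the numbers were not taken to pair the samples. The block then rests on these 4 arrays and gave a median of -2.48 over the 10 genes. Scanner files were not used here, so background correction could not be varied. The causes of these shifts were not tested.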
